A study of Mus musculus with 12 samples.

Results

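Cell adhesion molecules are the surface proteins by which cells hold on to each other, to passing leukocytes and to matrix. The genes described here are 9 that joint-lining fibroblasts are studied for: the immunoglobulin-type proteins Vcam1, Icam1, Icam2, F11r, Ncam1, Alcam and Mcam, and the classical cadherins Cdh2 and Cdh11. They were chosen by symbol, with earlier results of these data known, and all 9 were found among the 53341 genes measured. A gene was tested if its normalized count reached 10 in 3 or more of the 12 libraries, which 18139 genes did, 8 of the 9 among them. Icam2 was too low to be tested.

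RNA was sequenced from cultured mouse fibroblast-like synoviocytes, the fibroblasts of the synovium, taken from mice described only as SoxC. The 12 libraries form 4 groups of 3. The control group received the adenovirus Ade5CMV-eGFP, and the control_TNF group received the same virus and then recombinant human TNF at 10 ng/mL for 16 h. The SoxC_KO group received Ade5CMV-Cre, an adenovirus that carries Cre recombinase, and the SoxC_KO_TNF group received Ade5CMV-Cre and the same TNF. All 4 groups thus carried an adenoviral vector, and the sources used here do not say which part of each SOXC gene is lost to Cre. They also give no age of the mice. Nor do they say if replicates were different mice or different dishes, so the p-values reflect only how far these libraries spread, and that spread may be technical.

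VCAM1 and ICAM1 bind leukocyte integrins, VCAM1 chiefly the alpha4 integrins and ICAM1 the beta2 integrins, and in many cell types TNF raises their transcription through NF-kB. Classical cadherins bind the same cadherin on a neighbouring cell and are tied to actin through catenins. Cadherin-11 is the cadherin that fibroblasts of the synovial lining are best known for, and N-cadherin, encoded by Cdh2, is found in many mesenchymal cells.

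The promoter of Icam1 is shown because it holds the letters of an NF-kB site, and that of F11r as a window without those letters. Neither gene passed the test for TNF in the reported fit. With the replicate number in the fit as a block, Icam1 passed in control cells and on average, and not in knockout cells. Both come from RefSeq (GRCm38.p6, plus strand, 5′ to 3′) and stop before the gene starts annotated there and in the deposited table. Capitals mark matches, on either strand, to GGAAATTCC, a form that RELA is known to bind, or to a looser kappaB frame, GGG and CC with any 5 bases between.
Icam1, chr9:21015690-21015939: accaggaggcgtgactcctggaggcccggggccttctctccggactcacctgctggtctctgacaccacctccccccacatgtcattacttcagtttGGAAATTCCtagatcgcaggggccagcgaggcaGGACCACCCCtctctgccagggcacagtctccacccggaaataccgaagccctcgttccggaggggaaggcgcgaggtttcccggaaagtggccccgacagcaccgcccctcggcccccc
F11r, chr1:171437311-171437534: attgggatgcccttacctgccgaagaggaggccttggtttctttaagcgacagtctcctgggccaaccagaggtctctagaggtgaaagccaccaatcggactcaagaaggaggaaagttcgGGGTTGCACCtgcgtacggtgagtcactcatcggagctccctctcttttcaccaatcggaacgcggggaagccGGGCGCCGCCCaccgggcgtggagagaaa
In the Icam1 window GGAAATTCC begins 153 bases before the RefSeq start, on the plus strand, and GGACCACCCC, a match to the looser frame on the minus strand, begins 120 bases before it. GGAAATTCC is in 0.317% of the 32851 RefSeq promoter windows of 300 bases (250 before and 50 after the start), and the looser frame in 50.8% of them. The windows of F11r, Mcam and Alcam did not hold GGAAATTCC. The looser frame matched 5 times in the F11r window (overlaps and both strands counted), 9 times in that of Mcam and never in that of Alcam. The F11r matches that begin 18 and -29 bases before the RefSeq start (minus is after it) lie outside the stretch printed above. AACAAT, a core that SOX proteins are known to bind, is in 10.7% of all windows and in none of these 4. The promoter table held 4 of the 9 genes.

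Sox4, a SOXC gene, was read as a check of the labels. It had normalized counts of 4238, 4143 and 1857 in control libraries, 1697, 3646 and 1625 in control_TNF, 1432, 1433 and 548 in SoxC_KO and 1020, 1086 and 601 in SoxC_KO_TNF. The knockout libraries were lower than the control libraries of the same treatment, without overlap, and kept Sox4 reads. Sox11 and Sox12, the other SOXC genes, did not overlap with TNF, at 138 to 248 against 29.5 to 105 and at 237 to 326 against 86.5 to 159. Without TNF they did overlap between control and knockout, at 153 to 272 against 26.8 to 175 for Sox11 and at 162 to 352 against 194 to 259 for Sox12. The normalized counts of a library summed to 19.6 to 23.1 M. The 4 libraries numbered 3 in the labels stood apart in every group along the first principal component, which held 51.6% of the variance. They were at 28.5 to 120 on it. Control_TNF replicate 1, at 6.13, lay between them and the other libraries numbered 1 or 2, at -52.7 to -24.9. It was kept in the fits without the 4 libraries numbered 3. Markers of fibroblasts were high throughout, with summed normalized counts of 8 genes of 171200 to 539300. Summed markers of other cell types were at 345 to 535 for endothelium (8 genes), 1092 to 3439 for macrophages and leukocytes (7 genes), 1489 to 2652 for mural cells (5 genes), 1289 to 1620 for Schwann cells and glia (4 genes), 88.3 to 479 for epithelium (6 genes) and 354.5 to 1276 for skeletal muscle (6 genes). Within the leukocyte list Ptprc was the lowest, at 0 to 19.1, while Csf1r was at 193 to 670 and Lyz2 at 677 to 2438. Within the endothelial list Cldn5 was the lowest, at 0 to 5.27, and Egfl7 the highest, at 93.0 to 354. Within the skeletal muscle list Acta1 was the highest, at 280 to 1146. Myh4 was at 188 in SoxC_KO replicate 1, 277 in SoxC_KO_TNF replicate 1 and at most 13.3 elsewhere. Ckm was at 59.1 and 95.3 in the same libraries and at most 4.45 elsewhere. Liver transcripts, summed over 6 genes, reached 557 in control_TNF replicate 2 and 3721 in SoxC_KO_TNF replicate 1, and were at most 69.8 elsewhere. The fits below without the libraries with liver transcripts kept SoxC_KO replicate 1.

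Vcam1, the ligand of alpha4 integrins, rose with TNF in control and in knockout cells. Its normalized counts were 5347, 5562 and 5152 in the control libraries and 10090, 11297 and 9790 in the control_TNF libraries. In SoxC_KO they were 5583, 5456 and 4424, and in SoxC_KO_TNF 10912, 11508 and 11453. All 6 libraries with TNF lay above all 6 without, and the SDs of the 4 groups (n = 3 each) were 205, 798, 635 and 329. The rise was 1.94-fold in control cells (log2 0.95, SE 0.15, limma adjusted p = 0.0295) and 2.20-fold in knockout cells (log2 1.14, SE 0.15, adjusted p = 0.00973). Averaged over both genotypes it was 2.07-fold (log2 1.05, SE 0.11, adjusted p = 0.000602). Changes are on the log2(normalized count + 1) scale throughout. The call in control cells held when either SoxC_KO replicate 3 or SoxC_KO_TNF replicate 3 was left out, and was lost when any 1 of the other 10 libraries was (adjusted p from 0.0540 to 0.187). The call in knockout cells was lost without SoxC_KO_TNF replicate 1 (adjusted p = 0.0576) or replicate 2 (adjusted p = 0.0612), and the averaged call held in all 12 such fits. Without the 2 libraries with liver transcripts the changes were 0.89 in control cells (adjusted p = 0.27), 1.16 in knockout cells (adjusted p = 0.0867) and 1.03 on average (adjusted p = 0.0112), and without the 4 numbered 3 they were 0.969, 1.02 and 0.995 (adjusted p = 0.00401, 0.00349 and 0.000207). Of 8 fibroblast markers 1 rose (Pdpn) and 0 fell with TNF on average, beside 1.17% of all tested genes called. With the replicate number as a block 1 rose and 4 fell, beside 5.19%. Their sum, mostly Col1a1, Col1a2 and Col3a1, was 247600 to 507700 in control and 220400 to 422100 in control_TNF. In SoxC_KO it was 361600 to 539300 and in SoxC_KO_TNF 171200 to 425400. The part of this in the result was not tested.

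Vcam1 was the 1 gene of the 8 called in control cells, where 0.32% of all tested genes were called, and the 1 called in knockout cells, where 0.292% were. It was also the 1 of 8 called for the average TNF effect, against 1.17% of all genes. The libraries of a number were read as pairs for the TNF comparisons, in control cells only just (lowest correlation 0.103, cutoff 0.1). With the replicate number as a block Vcam1 and Icam1 were called in control cells (2 of 8, against 1.71% of all genes). With the block Vcam1 alone was called in knockout cells (1 of 8, against 2.78%), and Vcam1, Icam1 and Ncam1 were called for the average (3 of 8, against 5.19%). The median change of the 8 with the average TNF effect was a log2 change of 0.10, beside -0.0011 over all genes tested.

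**Figure D1:**
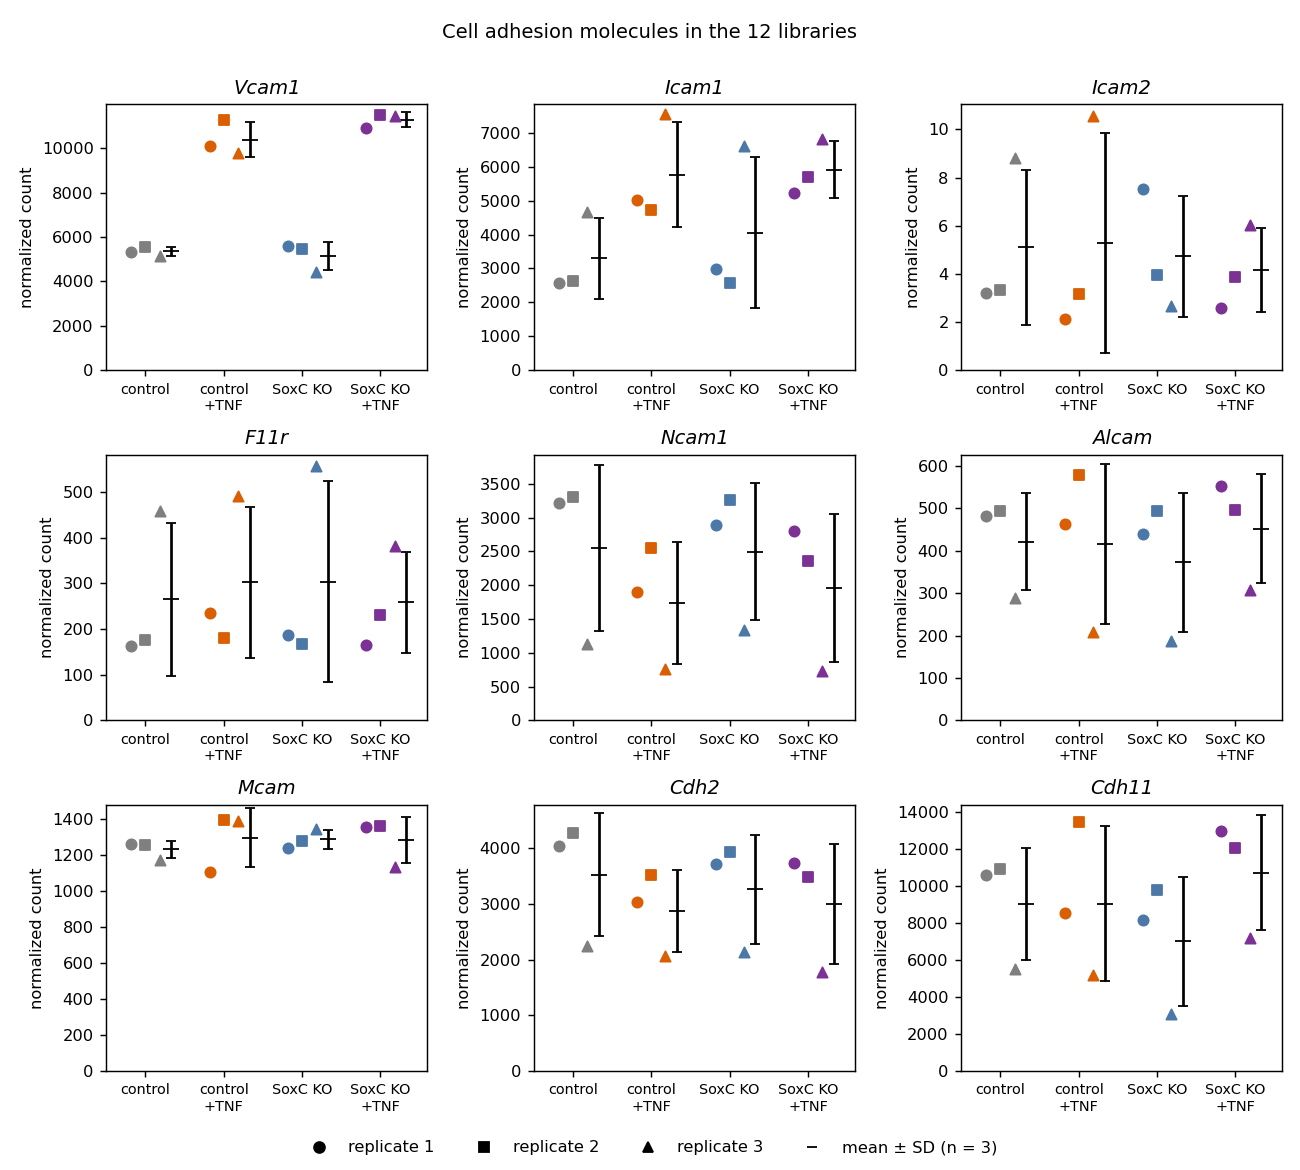
Normalized counts (vertical axes, linear from 0) of the 9 genes in 4 groups of 3 libraries, with the marker shape giving the replicate number and black bars the mean ± SD. Vcam1 is higher in every library with TNF than in any without, Icam1 and F11r are highest in replicate 3 of each group, and Ncam1, Alcam, Cdh2 and Cdh11 are lowest there.

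Icam1, the ligand of beta2 integrins, was higher with TNF in every pair of libraries with the same number, but its level also differed between numbers. Normalized counts were 2582, 2643 and 4662 in control libraries and 5016, 4734 and 7557 in control_TNF. They were 2993, 2567 and 6619 in SoxC_KO and 5217, 5698 and 6836 in SoxC_KO_TNF. The control and control_TNF libraries did not overlap, whereas SoxC_KO replicate 3 was above 2 of the 3 libraries of SoxC_KO_TNF. The change was 1.78-fold in control cells (log2 0.83, SE 0.36, adjusted p = 0.998) and 1.59-fold in knockout cells (log2 0.67, SE 0.36, adjusted p = 0.753), and neither passed the test.

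With the replicate block the rise of Icam1 passed in control cells (adjusted p = 0.0316) and on average (1.68-fold, log2 0.75, SE 0.12, adjusted p = 0.00333), and not in knockout cells (adjusted p = 0.0664). The averaged call with the block held when any 1 library was left out (adjusted p from 0.00026 to 0.0173), while that in control cells was lost in 8 of 12 such fits, those without any 1 of the control or control_TNF libraries, SoxC_KO replicate 1 or SoxC_KO_TNF replicate 1 (adjusted p from 0.0537 to 0.218). Without the 4 libraries numbered 3 and without the block, Icam1 rose by 0.90 in control cells (adjusted p = 0.00972) and by 0.98 in knockout cells (adjusted p = 0.0073), both on the log2 scale. Without the 2 libraries with liver transcripts the averaged change was 0.855 (adjusted p = 0.482), and 0.725 with the block (adjusted p = 0.035). Settings that leave out these sets of libraries were chosen after the data were seen.

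The differences between same-numbered libraries with and without TNF show how even each response was. For Vcam1 they were 0.92, 1.02 and 0.93 (log2) in control cells and 0.97, 1.08 and 1.37 in knockout cells. Those of Icam1 were 0.96, 0.84 and 0.70 in control cells and 0.80, 1.15 and 0.05 in knockout cells, so the pair numbered 3 in knockout cells was the 1 in which Icam1 was nearly level. Ncam1 was lower with TNF in all 6 pairs, by 0.76, 0.37 and 0.56 in control cells and by 0.05, 0.47 and 0.88 in knockout cells. These 3 of 8 genes had 1 sign in all 6 pairs, against 10.2% of all genes tested. By whole groups, Vcam1 and Icam1 did not overlap between control and control_TNF (2 of 8, against 8.72% of all genes) and Vcam1 alone did not between SoxC_KO and SoxC_KO_TNF (1 of 8, against 12.8%).

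**Figure D2:**
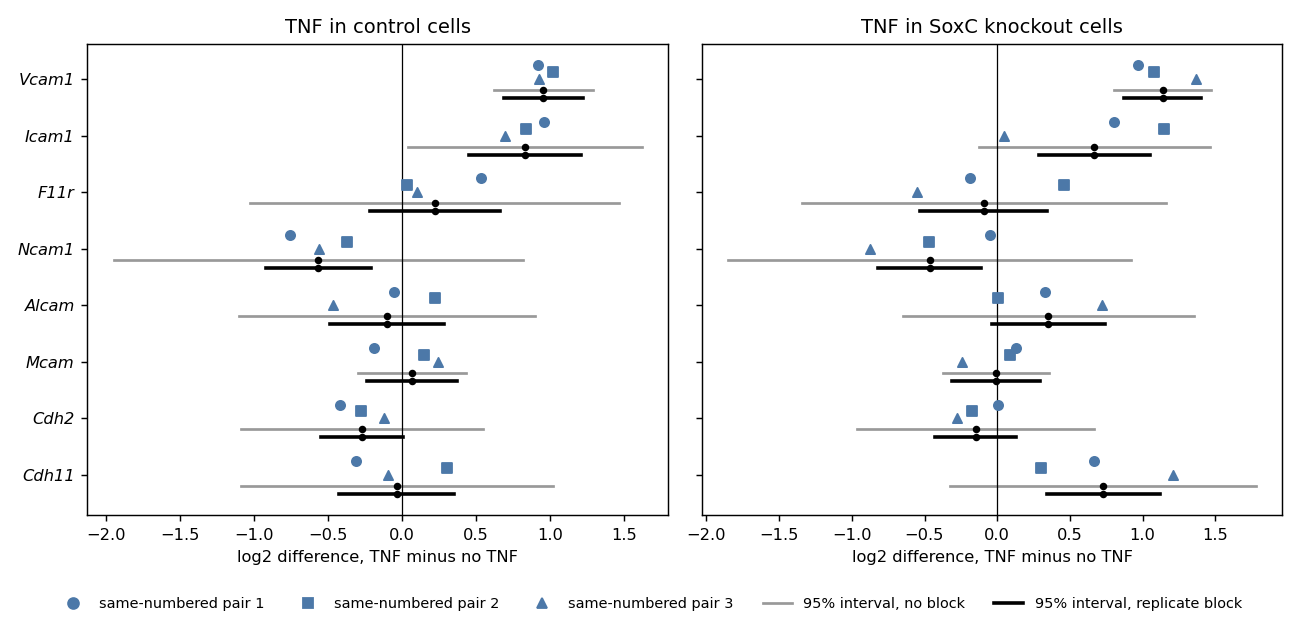
Log2 difference between TNF and no TNF (horizontal axis) for the 8 tested genes in control cells (left) and SoxC knockout cells (right): blue markers are same-numbered pairs, and black dots with lines are the fitted change with its 95% interval without (grey) and with (black) the replicate block. The Vcam1 intervals lie above 0 in both panels, and for all 8 genes the interval is narrower with the block, least so for Vcam1 and Mcam.

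Ncam1, which encodes the neural cell adhesion molecule, had 3213, 3303 and 1131 normalized counts in control libraries and 1897, 2548 and 765 in control_TNF. In knockout cells it had 2899, 3257 and 1339 without TNF and 2802, 2352 and 728 with it. The groups overlapped in both genotypes. The averaged change was -0.52 on the log2 scale (SE 0.45, adjusted p = 1) without the block, and with it Ncam1 fell by 0.52 (SE 0.12, adjusted p = 0.0212). That call was lost in 5 of 12 fits that left out 1 library, namely any control library or control_TNF replicate 1 or 3 (adjusted p from 0.0571 to 0.0782), and without the 4 libraries numbered 3 (no block) the change was -0.41 (adjusted p = 0.11). Without the 2 libraries with liver transcripts it was -0.879 (adjusted p = 0.803), and -0.642 with the block (adjusted p = 0.0145).

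The other immunoglobulin-type genes did not pass the test for TNF in either genotype, with or without the block. Mcam, also known as CD146, was at 1106 to 1393 normalized counts over all 12 libraries, and its averaged TNF change was a log2 of 0.03 with a 95% interval from -0.23 to 0.289. Alcam, a ligand of CD6 on T cells, had 482, 494 and 289 in control and 463, 577 and 209 in control_TNF. Its libraries numbered 1 and 2 were at 439 to 577 in all groups and those numbered 3 at 186 to 307. F11r, which encodes the tight junction protein JAM-A, showed the opposite order, with 162 to 235 in numbers 1 and 2 and 381 to 558 in number 3. Icam2, another beta2 integrin ligand and best known from endothelium, had 2.13 to 10.5 normalized counts and, per kb of exon, 1.12 to 5.54. Reads at that level carry a large counting error, and no change was calculated for it.

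Cdh11, the cadherin of the synovial lining, had 10562, 10901 and 5496 normalized counts in control and 8494, 13448 and 5146 in control_TNF. In knockout cells it had 8140, 9751 and 3085 without TNF and 12943, 12007 and 7156 with it. TNF differences between same-numbered libraries were -0.31, 0.30 and -0.09 (log2) in control cells and 0.67, 0.30 and 1.21 in knockout cells. Neither comparison passed (adjusted p = 1 in control cells, 0.795 in knockout cells), and with the block the knockout value, a log2 change of 0.73 (SE 0.18), had an adjusted p of 0.0515. The test of the difference between genotypes gave 0.76 (adjusted p = 0.884, and 0.284 with the block).

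Cdh2, which encodes N-cadherin, had 4051, 4278 and 2252 in control, 3033, 3527 and 2069 in control_TNF, 3729, 3931 and 2141 in SoxC_KO and 3746, 3485 and 1769 in SoxC_KO_TNF. It was lower with TNF in 5 of the 6 same-numbered pairs. The averaged change was a log2 of -0.21 (SE 0.26, adjusted p = 1, and 0.272 with the block), and it did not pass. The ratio of Cdh11 to Cdh2 normalized counts, not scaled to length, was 1.44 to 4.05 over the 12 libraries, with both ends in libraries of knockout cells numbered 3.

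The question of whether loss of SOXC changed these genes was asked without TNF, with TNF and on average. No tested member was called in any of the 3 (0 of 8), and neither was any other gene (0%), with 176, 233 and 140 genes at an unadjusted p under 0.05. Sox4 was among the genes not called in these fits, although its knockout and control libraries of the same treatment did not overlap. The lack of a call here thus does not show that a gene was unchanged. With the block the counts of called genes were 0, 0 and 1, and the 1 was no member. Unadjusted p was then under 0.05 for 826, 1160 and 293 genes. No member's groups were apart, against 4.37% of all genes without TNF and 5.16% with it. For Vcam1 the averaged knockout effect was a log2 of 0.03 with a 95% interval from -0.205 to 0.265, and for Icam1 0.14 with an interval from -0.416 to 0.701. For Mcam it was 0.03, from -0.233 to 0.286. The intervals of the others were wider, up to -0.903 to 1.05 for Ncam1. With the block they were narrower, from -0.157 to 0.218 for Vcam1, -0.126 to 0.412 for Icam1 and -0.174 to 0.325 for Ncam1. The numbers were not read as pairs for knockout with TNF, which enters this average. Without TNF the largest knockout change of a member was that of Cdh11, a log2 of -0.46 (95% interval from -1.51 to 0.596). With the block its interval was from -0.845 to -0.068 (adjusted p = 0.653). Its same-numbered differences there were -0.376, -0.161 and -0.833. With TNF its knockout change was 0.31, and the average was -0.075.

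Nor was a difference in the TNF response between genotypes called for any of the 8 (0%, with 273 of all genes at an unadjusted p under 0.05, and 3123 with the block). For Vcam1 the response in knockout cells minus that in control cells was 0.18 on the log2 scale (SE 0.21, 95% interval from -0.286 to 0.654). For Icam1 it was -0.17 (SE 0.51, interval from -1.28 to 0.952). Because the response in knockout cells and the comparison without TNF share the SoxC_KO libraries, SoxC_KO replicate 3, which was the highest for Icam1 and the lowest for Cdh11 among the libraries without TNF, enters both.

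Within every group the library numbered 3 differed from the other 2 for most of these genes. Against the mean of the other 2 libraries of their group, averaged over 4 groups, its log2 difference was -1.52 for Ncam1, -1.09 for Cdh11, -1.03 for Alcam and -0.85 for Cdh2. It was 1.33 for F11r and 0.76 for Icam1. In each of the 4 groups the library numbered 3 was the lowest for the first 4 of these genes and the highest for the last 2. These 6 of the 8 tested genes stand beside 47.7% of all tested genes that were highest (4169) or lowest (4483) in number 3 in all 4 groups. Vcam1 and Mcam differed by -0.12 and -0.03.

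Exon length moved with this difference. Over all tested genes the median difference of number 3 was 0.39 (log2) for 4079 genes with under 2 kb of exon, 0.14 for 5482 genes of 2 to 4 kb, -0.16 for 3842 genes of 4 to 6 kb and -0.61 for 4709 genes over 6 kb. The 4 members that were low in number 3 have 7121 to 8904 exon bases, F11r has 2663 and Icam1 4360, but Vcam1, with 8870, differed little. The summed leukocyte markers (7 genes, mostly Lyz2) were 2880 to 3439 in number 3 and 1092 to 1535 in the others. The summed fibroblast markers (mostly Col1a1, Col1a2 and Col3a1) were 171200 to 361600 and 368900 to 539300. Those collagen genes, Pdgfra, Pdgfrb and Prg4 were lowest in number 3 in every group. Vim and Pdpn were highest in number 3 in both groups without TNF, and lowest there in SoxC_KO_TNF. The part that transcript length, RNA quality or cell makeup has in these values was not tested. In bulk RNA fewer cells of a type and less RNA per cell cannot be told apart.

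**Figure D3:**
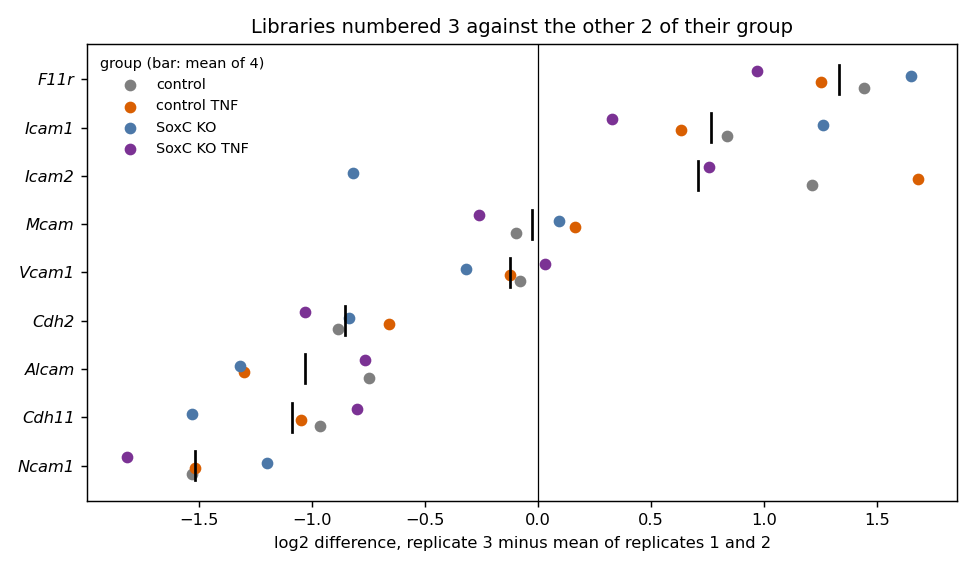
Log2 difference between the library numbered 3 and the mean of the other 2 in its group (horizontal axis) for the 9 genes, with 1 dot per group and a black bar at the mean of the 4 groups. All 4 dots lie below 0 for Ncam1, Cdh11, Alcam and Cdh2 and above 0 for F11r and Icam1.

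Between genes, levels were compared as normalized counts per kb of exon. Over all 3 control libraries the means were, from the highest, Cdh11 at 1010 ± 340 (SD, n = 3), Icam1 at 756 ± 271, Vcam1 at 604 ± 23.1, Cdh2 at 437 ± 138, Mcam at 367 ± 14.6, Ncam1 at 294 ± 142, F11r at 99.6 ± 62.8, Alcam at 59.2 ± 16.1 and Icam2 at 2.68 ± 1.69. Each gene's range overlapped that of the next in this order, except between Vcam1 and Cdh2 and between Alcam and Icam2. The libraries numbered 3 set part of this order. In control replicates 1 and 2 alone Vcam1 (615) stood above Icam1 (599), Ncam1 was level with Mcam (both 376), and Alcam (68.5) stood above F11r (63.4). In control_TNF, Icam1 stood at 1320 ± 357, Vcam1 at 1170 ± 89.9 and Cdh11 at 1010 ± 469, with ranges that overlap. The ratio of Vcam1 to Icam1 normalized counts, not scaled to length, was 1.87 to 2.39 in the 8 libraries numbered 1 or 2 and 0.668 to 1.68 in those numbered 3. Per kb it was 0.917 to 1.17 and 0.329 to 0.823.

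Antisense transcripts overlap some exons, and the sources used here do not say if reads were counted by strand. For Vcam1 the overlap with Gm43109 is 61 of 8870 exon bases, for Icam1 with Gm47079 it is 511 of 4360, and for Ncam1 with Gm11149 it is 417 of 8664. Those partners averaged 1.05, 8.38 and 30.6 normalized counts. Mcam shares 17 of 3350 exon bases with Gm10687, which averaged 112. Reads of such pairs cannot be told apart without strand.

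Over the 12 libraries, the genes whose log2 values ran most like those of Vcam1 were Serpinb2, a plasminogen activator inhibitor (Pearson r = 0.989), Ptpn22, a phosphatase (0.985), and Tlr2, a receptor of bacterial lipoproteins (0.984). For Icam1 they were Ptges, a prostaglandin E synthase (0.981), the pore protein gene Gsdmd (0.980) and the class I gene H2-Q6 (0.980). For Cdh11 they were Galnt7 (0.993) and Fut8 (0.992), which encode glycosyltransferases, and the calcium pump gene Atp2b1 (0.992). These are the highest of 11654 genes with a mean of at least 50 and describe these libraries, which share the TNF treatment and the difference of number 3.

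The integrins that bind VCAM1 and ICAM1 were read in the same cells. Itgb1, the beta1 chain, had 23064 to 37043 normalized counts, and Itga4, the alpha4 chain that pairs with it to bind VCAM1, had 16.8 to 261, lowest in SoxC_KO replicate 3. The beta2 integrin chains that bind ICAM1 on leukocytes were low, with Itgb2 at 26.6 to 97.4, Itgam at 30.8 to 66.0 and Itgal at 11.9 to 30.2. None of these 5 passed the test for the average TNF effect, with or without the block.

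Of 23 integrin chains, all tested, 1 rose on average with TNF and 0 fell (with the block 3 rose and 3 fell), beside 1.17% of all tested genes called without the block and 5.19% with it, and the median change was -0.02. The 1 was Itgb3, the beta3 chain of the vitronectin receptor, with 857, 881 and 624 normalized counts in control, 1688, 2307 and 1567 in control_TNF, 800, 866 and 816 in SoxC_KO and 2040, 1966 and 1486 in SoxC_KO_TNF. Its libraries with TNF lay above all without, with an averaged log2 change of 1.18 (SE 0.15, adjusted p = 0.00291), and the call held in all 12 fits that left out 1 library. It was 1.22 without the 4 libraries numbered 3 (adjusted p = 0.000464) and 1.05 without the 2 with liver transcripts (adjusted p = 0.029). It was also called in control cells (adjusted p = 0.0499).

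Of 28 other immunoglobulin-type adhesion molecules 25 were tested, and 1 rose and 0 fell (with the block 1 rose and 2 fell), beside the same 1.17% and 5.19% of all genes, with a median of -0.13. The 1 was Jam2, a junctional adhesion molecule like F11r, at 498 to 634 in control, 752 to 924 in control_TNF, 482 to 575 in SoxC_KO and 844 to 1096 in SoxC_KO_TNF. All libraries with TNF were above all without (log2 0.71, SE 0.13, adjusted p = 0.0251). Of 14 other cadherins and catenins 12 were tested, and 0 rose and 1 fell, also with the block, beside 1.17% and 5.19%, with a median of -0.17. Cdh3, which encodes P-cadherin, had 267, 301 and 184 in control, 107, 124 and 87.5 in control_TNF, 303, 257 and 137 in SoxC_KO and 101, 116 and 65.2 in SoxC_KO_TNF. It fell by 1.24 on the log2 scale (SE 0.24, adjusted p = 0.0301), with no overlap between libraries with and without TNF.

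Of 8 selectins, selectin ligands and Cd44, 7 were tested, and 1 rose and 0 fell (with the block 3 rose and 0 fell), beside 1.17% and 5.19% of all genes, with a median of 0.75. The 1 was Cd34, a sialomucin that can carry selectin ligands, at 198 to 320 in control, 424 to 444 in control_TNF, 200 to 234 in SoxC_KO and 335 to 528 in SoxC_KO_TNF (log2 0.91, SE 0.17, adjusted p = 0.0235). Of the 7 tested, Podxl had 2.68 to 21.1 normalized counts, Selplg 2.49 to 26.8 and Sele 5.37 to 82.2. The median of this short list thus rests in part on low genes. None of 5 membrane linkers and sheddases was called, with or without the block, and their median was 0.12. Msn, which encodes the linker moesin, had the highest mean of these, at 12927 to 28601. The calls of Jam2, Cdh3 and Cd34 are near the threshold: they held in 2, 3 and 3 of the 12 fits that left out 1 library, and without the 2 libraries with liver transcripts their adjusted p-values were 0.125, 0.108 and 0.0764. Without the 4 libraries numbered 3 they were 0.00495, 0.000672 and 0.00254. No gene of these lists was called for knockout or for the difference between genotypes.

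**Figure D4:**
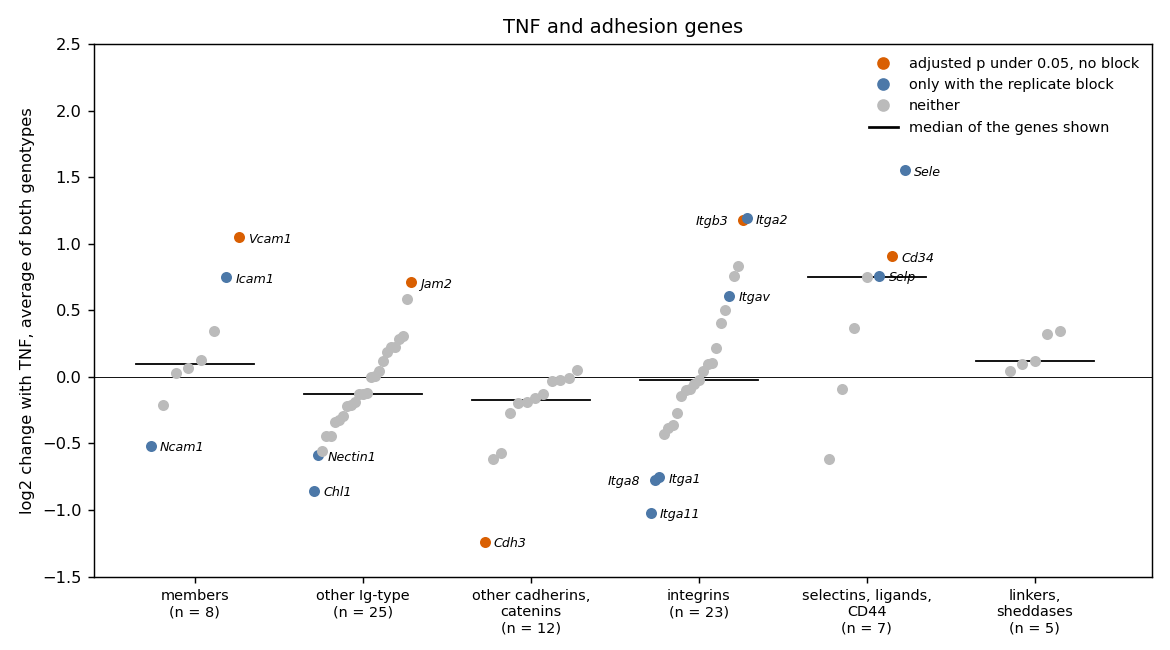
Averaged log2 change with TNF (vertical axis) of the 8 tested members and of 5 lists of other adhesion genes, with 1 dot per gene coloured by whether it passed limma's adjusted p of 0.05 without or only with the replicate block, and a line at each median. Vcam1, Jam2, Itgb3 and Cd34 pass above 0 and Cdh3 below 0 without the block. Genes named on the plot that passed only with the block are labelled for having passed, after their values were seen.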

How the data were processed

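The deposited table holds 1 log2 value per gene and library, and per the file headers the authors' values are normalized. Per the submitters' processing notes the tools included DESeq and the build was mm10. For the aligner, annotation and use of strand, nothing is stated in the sources used here. A value of 1 or less is listed as 0, and the deposited log2 values were raised to linear counts, since the design assumed linear values. Read depth is not known from these normalized values, and no count model was run.

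Genes that reached a normalized count of 10 in 3 or more libraries were analysed as log2(normalized count + 1), which understates changes of low genes. A limma model (R 4.3.3, limma 3.58.1) with 1 mean per group and an intensity trend was fitted to all 12 libraries, with Benjamini-Hochberg adjustment over 18139 genes at 0.05. The fit was tested on simulated data. Figures used Python 3.11.15 and matplotlib 3.10.9.

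Pairing was checked by correlating the deviations of same-numbered libraries from their group means. The lowest r was 0.103 for TNF in control cells, 0.148 for TNF in knockout cells and 0.457 for knockout without TNF, so numbers were read as pairs there at a cutoff of 0.1. It was 0.0537 for knockout with TNF, where they were not. The value for TNF in control cells lies just above the cutoff. The block took the same replicate difference in all 4 groups. The block fits of the TNF comparisons thus also joined control_TNF and SoxC_KO_TNF libraries by number. The libraries numbered 3 stand apart in every group, so the check cannot separate true pairs from that shared difference.

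The members and lists were chosen with earlier results of these data known. Named were the 9 members, up to 4 called genes per direction in each of 5 adhesion lists (or the gene with the highest mean where none was called), 5 integrin chains that form receptors of VCAM1 and ICAM1, and the 3 genes most like Vcam1, Icam1 and Cdh11. Sox4, the cell type markers and antisense partners are given as checks. Exon lengths came from GENCODE M21, where 99.8% of gene identifiers were found. Alternatives covered pseudocount, filter, scaling, trend, library weights, the replicate block, the samples in the fit and leaving out libraries.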

Additional observations from a re-analysis of the deposited data

How the results depend on the processing

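Of 1432 values of single members under alternative settings, 0 reversed a call, 15 were newly called, 20 lost a call and 140 changed sign while not called in either setting. For TNF in control cells 1 member (Vcam1) was called, and 0 were with no filter, quantile normalization, equal totals, no trend, only the groups compared or without the 2 libraries with liver transcripts, 2 without the 4 libraries numbered 3 or with the replicate block, 4 with array weights, and 0 to 1 when 1 library was left out. For TNF in knockout cells, where 1 was called, 0 were with only the groups compared or without the 2 libraries with liver transcripts, 2 with array weights or without the 4 libraries numbered 3, and 0 to 1 when 1 library was left out. For the average TNF effect the counts were 1 in the reported fit, 3 with the replicate block, with or without the 2 libraries with liver transcripts, or with array weights, 2 without the 4 libraries numbered 3, and 1 to 2 when 1 library was left out (Icam1 joined without SoxC_KO replicate 3, adjusted p = 0.0442). Counts for knockout and for the difference between genotypes stayed at 0 in all settings run. The settings without the libraries numbered 3 or those with liver transcripts were chosen after the data were seen. In the replicate block fits Vcam1 stayed called when any 1 library was left out. Array weights were estimated gene by gene because the default estimate did not converge, and called 6462, 921 and 3424 of all genes in the 3 TNF comparisons. The replicate block called 310, 505 and 941, against 58, 53 and 212 without it. The cause of these differences was not tested. With 3 libraries per group, the precision for Ncam1, Cdh11, F11r and Alcam is limited by the spread between libraries.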
